A study of Danio rerio with 70 samples.

Results

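The Notch receptor genes notch1a (ENSDARG00000103554), notch1b (ENSDARG00000052094) and notch3 (ENSDARG00000052139) were followed through 70 RNA-seq libraries of zebrafish T-cell acute lymphoblastic leukaemia (T-ALL) and healthy thymus. They were named by their Ensembl identifiers, with earlier results of these data known, and are 3 of the 35117 genes in the count tables. The libraries came from 2 laboratories. In the Speleman laboratory, human TLX1 was driven by the rag2 promoter, which is active in immature lymphoid cells, together with GFP under the same promoter. Its groups were 6 transplants and 4 primary tumours of phf6+/- TLX1 fish, 6 transplants and 2 primary tumours of TLX1 fish, and 6 dissected thymi of fish carrying rag2:GFP alone. The transplants were grown in Rag2-/- recipients from 4 of the primary tumours, and the label of 1 thymus library carries 4 numbers. The titles of the thymus libraries begin with AB, which is also the name of a zebrafish strain. In the Frazer laboratory every library was made from sorted GFP+ cells of lck:GFP fish, in which the T-cell promoter of lck drives GFP. Its groups were T-ALLs of the hulk (9), otg (10) and shrek (10) lines, preleukemic cells of hulk (3), otg (4), shrek (2) and hMYC fish (3), and sorted healthy thymocytes (5). The hMYC fish carry rag2:hMYC, and the labels do not name the mutations of hulk, otg and shrek. Apart from the tumours named for the transplants, nothing in the labels ties a library to its own fish, so p-values cover only the spread between these libraries, part of which may be technical.

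Notch receptors are single-pass membrane proteins that bind Delta and Jagged ligands on a neighbouring cell. ADAM proteases and the gamma-secretase complex then cut the receptor, and its freed intracellular domain enters the nucleus, where it activates genes with RBPJ and Mastermind proteins. In mammals, NOTCH1 directs lymphoid progenitors into the T-cell lineage and is the receptor most often activated by mutation in human T-ALL. NOTCH3 is also expressed by immature thymocytes and by the mural cells of blood vessels. Zebrafish have a pair of NOTCH1 genes, notch1a and notch1b. Read counts per gene show how much mRNA was present and carry no information on cleavage or mutation of the receptor.

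Libraries held 23730828 to 41393446 reads counted to genes (Speleman laboratory) or 8676867 to 56471528 (Frazer laboratory). Levels are given as CPM (counts-per-million, a gene's share of the reads of its library), with TMM scaling factors over all 70 libraries, and they are compared between libraries, not between genes, since gene lengths were not used here. All 12 T-cell markers looked at, among them lck, rag1 and zap70, were detected in every group, with summed levels of 1670 to 22800 CPM per library. Mitochondrial genes took over 20% of the reads in 3 libraries, hulk tumour 1 (25%), hulk tumour 2 (61.4%) and sorted thymocyte library 3 (22%). Sorted thymocyte library 3 was also the highest of its group for summed markers of skin (681 CPM), fibroblasts (172 CPM), thymic epithelium (111 CPM) and neural cells (70.3 CPM), and the lowest for T-cell markers (3030 CPM). Called values that rest on these libraries are given without them as well. In bulk RNA, fewer cells of a type and less RNA per cell cannot be told apart.

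Each receptor had its own order of levels over the 13 groups. The highest median of notch1a was that of sorted healthy thymocytes, at 28.5 CPM, and the lowest that of otg T-ALLs, at 1.12 CPM. Every neighbouring pair of groups in that order overlapped in range. For notch1b the preleukemic otg cells came highest, with a median of 96.5 CPM and no overlap with the next group, the sorted thymocytes at 30.1 CPM. The TLX1 transplants came lowest for notch1b, at a median of 0.216 CPM and with 1 to 9 reads a library. All of them lay below the next group up, the 2 TLX1 primary tumours. For notch3 the dissected thymi stood highest with a median of 26.2 CPM and did not overlap the next group, the preleukemic otg cells at 7.54 CPM. The share of all genes with such gaps between groups was not computed. The dissected thymi had 21.0 to 40.5 CPM of notch3, while sorted thymocytes of the other laboratory had 1.00 to 3.85 CPM. Laboratory, tissue preparation and genotype differ together between those 2 healthy groups, so their difference was not tested.

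**Figure D1:**
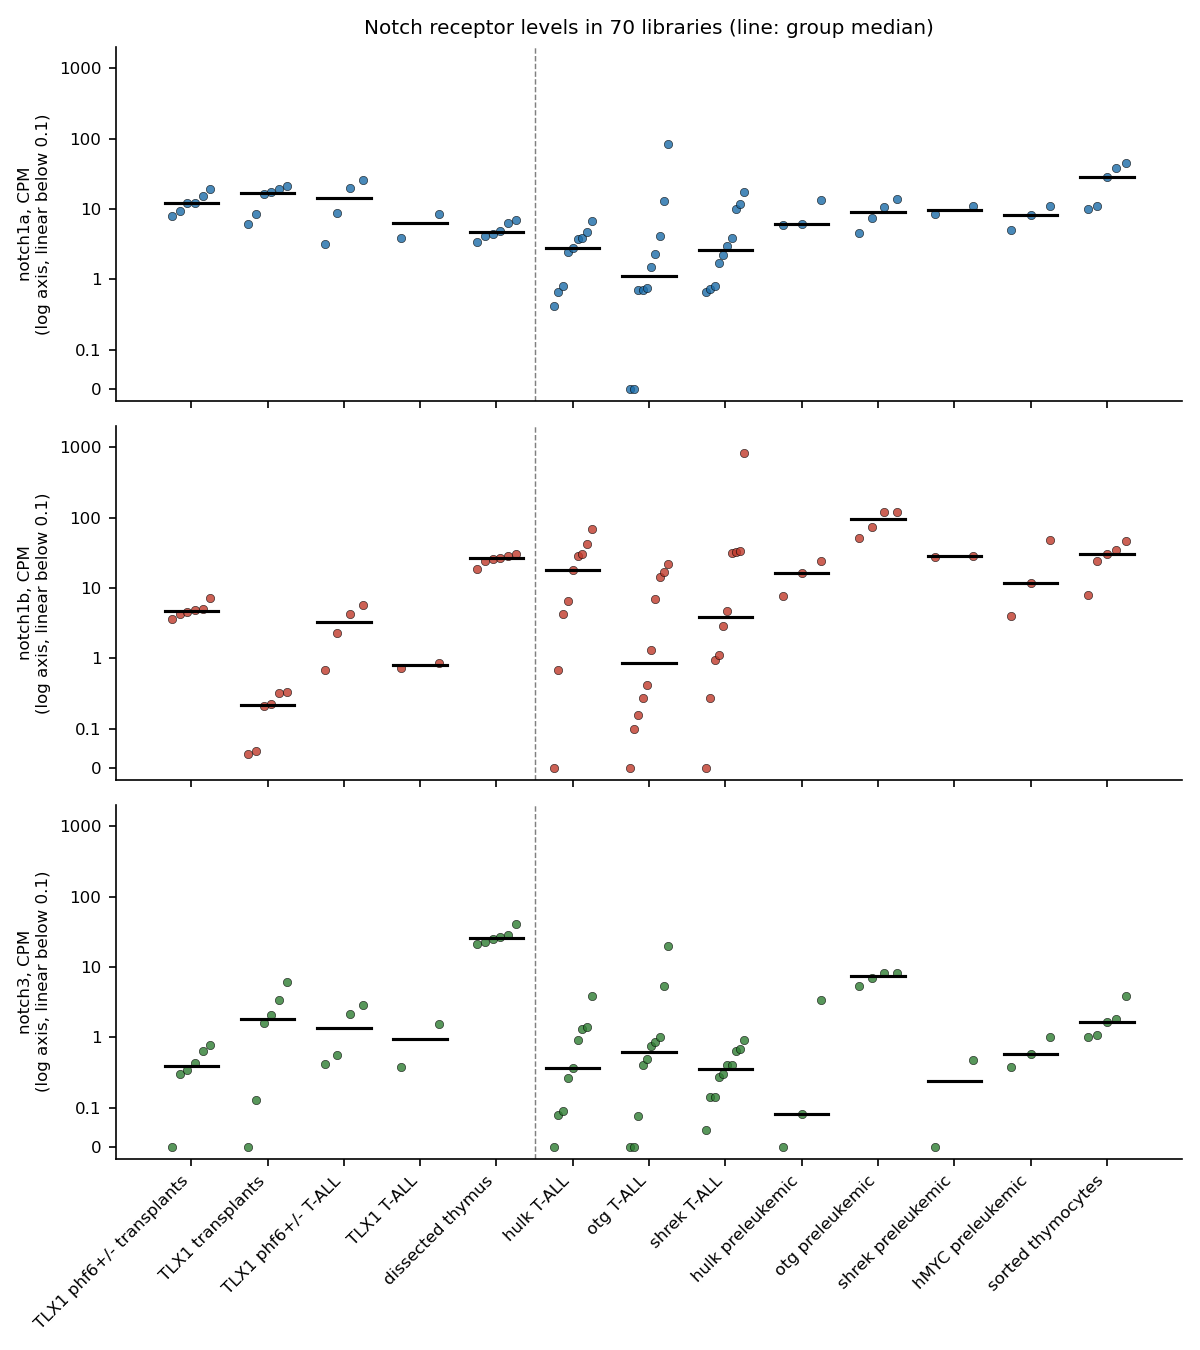
Levels (CPM with TMM factors, log axis, linear below 0.1) of notch1a, notch1b and notch3 in each of the 70 libraries, by group. Points are libraries and bars are group medians. notch1b lies lowest in the TLX1 transplants and notch3 highest in the dissected thymi.

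Among primary tumours of the TLX1 model, notch1b and notch3 were far lower than in dissected thymus. The notch1b level was 4.31, 5.70, 2.28 and 0.679 CPM in the phf6+/- TLX1 T-ALLs and 0.732 and 0.864 CPM in the TLX1 T-ALLs, against 23.8, 28.4, 18.5, 26.0, 30.2 and 27.0 CPM in the thymi. The notch3 level was 0.414, 2.89, 2.17 and 0.566 CPM in the phf6+/- TLX1 T-ALLs and 0.383 and 1.52 CPM in the TLX1 T-ALLs, against 27.0, 40.5, 28.2, 21.0, 25.3 and 22.7 CPM in the thymi. For both receptors every tumour lay below every thymus. The share of all genes separated in this way was not computed. In edgeR's quasi-likelihood test with Benjamini-Hochberg adjustment over all genes, notch1b fell by 3.90 on the log2 scale in TLX1 T-ALL (SE 0.43, adjusted p = 1.5e-05). By the same test notch3 fell by 4.46 (SE 0.52, adjusted p = 2.28e-05). These 2 of 3 receptors stand against a background in which 56.0% of the 22224 genes tested were called in this comparison, 7950 of them lower.

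The other NOTCH1 gene, notch1a, did not pass that test. Its level was 19.9, 8.81, 3.18 and 26.1 CPM in the phf6+/- TLX1 T-ALLs and 8.57 and 3.91 CPM in the TLX1 T-ALLs, against 4.89, 6.93, 6.25, 4.1, 4.40 and 3.40 CPM in the thymi. Of the 6 tumours, 4 lay above all thymi, 1 lay below them all and 1 lay within their range. The log2 fold change was 1.04 (SE 0.44, edgeR adjusted p = 0.0607). It was 1.15 (adjusted p = 0.0389) without phf6+/- tumour 2, 1.22 (adjusted p = 0.00765) without phf6+/- tumour 3, and 1.25 (adjusted p = 0.0497) without TLX1 tumour 2. With library size as the only scaling it was -0.19 (adjusted p = 0.724), so its direction depends on the scaling. That scaling moved the median of all genes to -1.45, against -0.19 with TMM factors.

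The dissected thymus is a whole organ, and markers of several of its other cell types, though not of all, were also lower in the tumours. Summed markers of thymic epithelium reached 4.31 to 17 CPM in phf6+/- TLX1 T-ALLs and 5.26 to 16.7 CPM in TLX1 T-ALLs, against 197 to 300 CPM in thymi, with 4 of 5 markers called lower. Of the defining epithelial markers, foxn1 and PSMB11 (ENSDARG00000108530) were at 0 reads in both TLX1 T-ALLs. Each of the 5 epithelial markers had reads in at least 1 of the 4 phf6+/- TLX1 T-ALLs. Mural cell markers, which matter for notch3, summed to 115 to 223 CPM in phf6+/- TLX1 T-ALLs and 119 to 210 CPM in TLX1 T-ALLs, against 227 to 272 CPM in thymi, with 5 of 9 called lower. This sum also reached 258 to 622 CPM in sorted thymocytes, so it may not measure mural cells alone. PDGFRB, the defining receptor of mural cells, had 0 to 1.22 CPM in phf6+/- TLX1 T-ALLs and 0.0823 and 0.174 CPM in TLX1 T-ALLs, against 0.402 to 1.58 CPM in thymi. Endothelial markers summed to 14.7 to 27.5 CPM and 15.5 to 18.4 CPM in these tumour groups, against 26.9 to 38.3 CPM in thymi, with 3 of 6 called lower. The shares called of mural (55.6%) and endothelial markers (50%) were near that of all genes in this comparison (56.0%). Fibroblast markers (6 of 6), skin markers (4 of 4) and neural markers (5 of 6) were called lower as well. Neutrophil markers (3 of 3) were called higher instead. Of 11 macrophage markers, 3 were called higher and 5 lower, and of 5 B-cell markers 1 was called higher and 0 lower. T-cell markers were divided, with 4 of 12 called higher and 3 called lower, and sums of 6800 to 22300 CPM in phf6+/- TLX1 T-ALLs, 11400 to 22800 CPM in TLX1 T-ALLs and 5970 to 7240 CPM in thymi. The part of these cell types in the fall of notch1b and notch3 was not tested.

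Between the tumour genotypes, no receptor passed the test, in a comparison where 0.0405% of genes were called. The notch1b values above give a log2 fold change of 1.90 for phf6+/- TLX1 T-ALL over TLX1 T-ALL (SE 0.60, edgeR adjusted p = 0.234). With the DESeq2 test notch1b passed, at 2.08 (adjusted p = 0.0318). The values were 1.17 (SE 0.68, adjusted p = 0.466) for notch1a and 0.48 (SE 0.68, adjusted p = 0.806) for notch3. Phf6 encodes a chromatin-binding protein that is recurrently mutated in human T-ALL, and these libraries hold only 4 and 2 primary tumours of its genotypes.

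Transplants did not differ from their tumours of origin by the test, and notch1b and notch3 were low in them too. Over 4 tumours of origin, with the tumour as a block, the log2 fold change of transplants over primary tumours was -1.03 for notch1b (SE 0.53, edgeR adjusted p = 0.581) and -0.94 for notch3 (SE 0.69, adjusted p = 0.702). It was 0.42 for notch1a (SE 0.53, adjusted p = 0.841). None of the 3 receptors was called, where 0.123% of genes were.

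Levels in the transplants varied with the tumour of origin, which was not tested, and transplants of the same tumour are not independent. Transplants of the 2 phf6+/- tumours had 3.64 to 7.12 CPM of notch1b, while the 6 TLX1 transplants had 0.0351 to 0.330 CPM, which is 1 to 9 reads a library. Tumour of origin and phf6 genotype cannot be told apart there. The primary tumours that gave the TLX1 transplants had 0.732 CPM (21 reads) and 0.864 CPM (21 reads). For notch3 the transplants of TLX1 tumour 2 stood apart, with 1.57 and 2.07 CPM in transplants 2-1 and 2-2 and 3.40 and 6.01 CPM in the libraries passed on from transplant 2-2, against 1.52 CPM in that tumour. All other transplants had 0 to 0.781 CPM of notch3. For notch1a the same tumour had 3.91 CPM and its 4 transplants 16.6 to 21.3 CPM, whereas phf6+/- tumour 1 had 19.9 CPM and its 3 transplants 8.03 to 12.3 CPM. All 18 TLX1 libraries, primary and transplanted, lay below the lowest thymus for both notch1b and notch3. The share of all genes that did so was not computed.

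**Figure D2:**
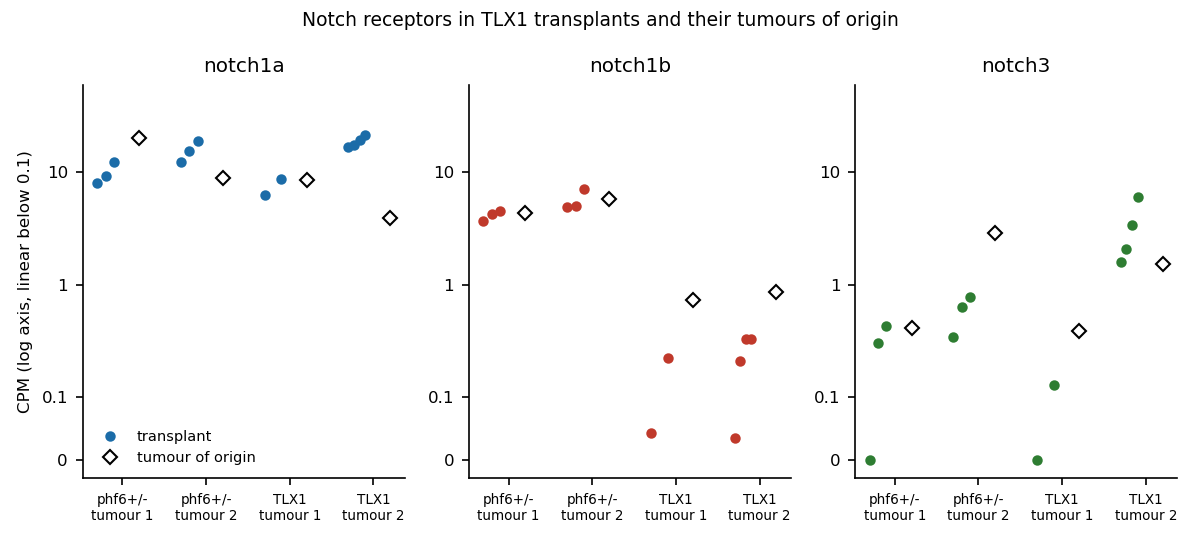
CPM (log axis, linear below 0.1) of the 3 receptors in TLX1 transplants (filled points) and in the primary tumours they trace back to (open diamonds), grouped by tumour of origin. The 4 transplants of TLX1 tumour 2 lie above that tumour for notch1a, at 16.6 to 21.3 CPM against 3.91 CPM.

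The hulk, otg and shrek T-ALLs were compared with the same 5 sorted thymocyte libraries, which form a separate table, and an effect of the table cannot be told apart from that of leukaemia. In most of these tumours notch1a lay below the healthy range. Sorted thymocytes had 38.8, 45.05, 11.2, 28.5 and 10.05 CPM of notch1a. In hulk T-ALLs 1 to 9 it was 4.75, 3.78, 3.93, 6.81, 2.43, 0.815, 0.658, 0.423 and 2.76 CPM, so all 9 lay below the lowest thymocyte library. The share of all genes with all 9 below was not computed. By edgeR's test notch1a fell by 3.02 on the log2 scale in hulk T-ALL (SE 0.95, adjusted p = 0.0309), the only one of 3 receptors called there, with 13.7% of all genes called. The call was lost without hulk tumour 8 (-2.87, adjusted p = 0.0515), and without sorted thymocyte library 1 (-2.87, adjusted p = 0.0689), 2 (-2.77, adjusted p = 0.0775) or 4 (-2.98, adjusted p = 0.0601). Without the 3 libraries rich in mitochondrial reads it was -3.49 (adjusted p = 0.0443).

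In otg T-ALLs, 8 of 10 tumours were below the healthy range of notch1a, at 0, 0, 0.698, 0.705, 0.765, 1.48, 2.31 and 4.13 CPM. Tumour 10 had 12.85 CPM and tumour 9 had 84.75 CPM, which is 1244 reads. The log2 fold change of otg T-ALL over sorted thymocytes was -1.17 (SE 0.91, edgeR adjusted p = 0.351). Without tumour 9 it was -3.26 (adjusted p = 0.00196), and with limma voom and all tumours in it was -3.67 (adjusted p = 0.000528). By edgeR's test with all tumours in, none of the 3 receptors was called, where 28.0% of genes were.

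In shrek T-ALLs notch1a had its lowest value at 0.661 CPM, its median at 2.62 CPM and its highest at 17.4 CPM, and 8 of 10 tumours were below the healthy range. The log2 fold change was -2.24 (SE 0.91, edgeR adjusted p = 0.0573), and edgeR called none of the 3 receptors where it called 30.2% of genes. Without shrek tumour 4, which had 17.4 CPM, it was -2.68 (adjusted p = 0.0277). DESeq2's scaling (-2.46, adjusted p = 0.0384), its test (-2.46, adjusted p = 0.0235), limma voom (-2.84, adjusted p = 0.000901) and a fit of the compared groups alone (-2.38, adjusted p = 0.0169) put it past the threshold.

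In each of these lines the tumours reached down to 0 CPM of notch1b, where the lowest sorted thymocyte library had 7.83 CPM. The share of all genes that did so was not computed, and each line holds more libraries than the thymocytes. Sorted thymocytes had 7.83, 24.3, 34.6, 45.8 and 30.1 CPM. The hulk T-ALLs had 68.7, 30.0, 4.23, 6.45, 28.9, 41.7, 0, 18.3 and 0.690 CPM, with 4 of 9 below the healthy range and 1 above it. The otg T-ALLs had 0.157, 1.31, 14.3, 0.424, 7.06, 16.7, 0.0984, 0, 0.273 and 22.2 CPM, with 7 of 10 below. The shrek T-ALLs had 2.85, 4.78, 0.272, 31.1, 32.5, 1.12, 838, 0.953, 0 and 33.1 CPM, with 6 of 10 below and 1, tumour 7, above.

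These tumours gave log2 fold changes of notch1b over sorted thymocytes of -0.23 for hulk (SE 1.3, edgeR adjusted p = 0.933), -2.08 for otg (SE 1.25, adjusted p = 0.212) and 1.75 for shrek (SE 1.40, adjusted p = 0.356). Without sorted thymocyte library 4 the hulk value was 0.02 (adjusted p = 0.997). Without tumour 7 the shrek value was -1.20 (adjusted p = 0.421). With limma voom, which works on log counts, the values were -4.05 for otg (adjusted p = 0.0403) and -2.39 for shrek (adjusted p = 0.116).

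The sorted libraries ran from 0 to 19.5 CPM of notch3. Sorted thymocytes had 1.08, 1.63, 3.85, 1.00 and 1.82 CPM, the 3.85 CPM being that of library 3. Levels of 0.0805, 0.919, 3.87, 0.362, 1.40, 0.0906, 0, 0.264 and 1.3 CPM were found in hulk T-ALLs. In otg T-ALLs they were 0.862, 19.5, 0.0797, 5.30, 0, 0.998, 0.492, 0, 0.409 and 0.748 CPM. All 10 shrek T-ALLs, at 0.0432 to 0.916 CPM, lay below all sorted thymocytes, as did 6 of 9 hulk and 8 of 10 otg T-ALLs. The share of all genes with as many tumours below was not computed.

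For notch3 the log2 fold change over sorted thymocytes was -0.94 for hulk (SE 1.02, edgeR adjusted p = 0.572), 0.71 for otg (SE 1.04, adjusted p = 0.649) and -2.18 for shrek (SE 0.99, adjusted p = 0.0909). The otg value was -0.81 (adjusted p = 0.552) without tumour 2. The shrek value passed the threshold with a fit of the compared groups alone (-2.30, adjusted p = 0.0058), with the DESeq2 test (-2.40, adjusted p = 0.0486) and with limma voom (-2.26, adjusted p = 0.0499). Without the 3 libraries rich in mitochondrial reads it was -1.78 (adjusted p = 0.237). Markers of mural cells were called lower in 5 of 8 genes tested for shrek T-ALL and 6 of 8 for otg T-ALL, and in 0 for hulk T-ALL. Other lists fell in the same comparisons, in shrek T-ALL fibroblast (6 of 6), skin (4 of 4), B-cell (4 of 5), neural (4 of 6) and thymic epithelial markers (3 of 5), and in otg T-ALL skin (4 of 4), B-cell (4 of 5), fibroblast (4 of 6), endothelial (4 of 6) and thymic epithelial markers (2 of 5). Over all genes 30.2% were called in shrek, 28.0% in otg and 13.7% in hulk T-ALL. Macrophage markers were near those shares in shrek and otg T-ALL, with 3 of 11 called lower in each (27.3%). In both of these lines 2 of 12 T-cell markers were called higher, and in otg T-ALL 1 of 3 neutrophil markers was. In hulk T-ALL 1 of 3 neutrophil markers was called higher, and 2 of 12 T-cell markers were called lower. PDGFRB had 0 to 1.88 CPM (median 0) in hulk T-ALLs, 0 CPM in all 10 otg T-ALLs and 0 to 0.366 CPM in shrek T-ALLs, against 0 to 0.191 CPM in sorted thymocytes. RGS5, another mural marker, had 1.64 to 17.9 CPM in hulk, 0 to 1.63 CPM in otg and 0 to 0.56 CPM in shrek T-ALLs, against 0.766 to 16.2 CPM in sorted thymocytes, and KCNJ8 was at 0 in all hulk, otg and shrek T-ALLs and sorted thymocytes. Most of the summed mural level came from MYH11 (ENSDARG00000009782), at 158.9 to 530.0 CPM in sorted thymocytes. The part of these markers in the notch3 levels was not tested. T-cell markers summed to 1810 to 9060 CPM in hulk, 3870 to 17300 CPM in otg and 7530 to 19900 CPM in shrek T-ALLs, against 3030 to 7110 CPM in sorted thymocytes.

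**Figure D3:**
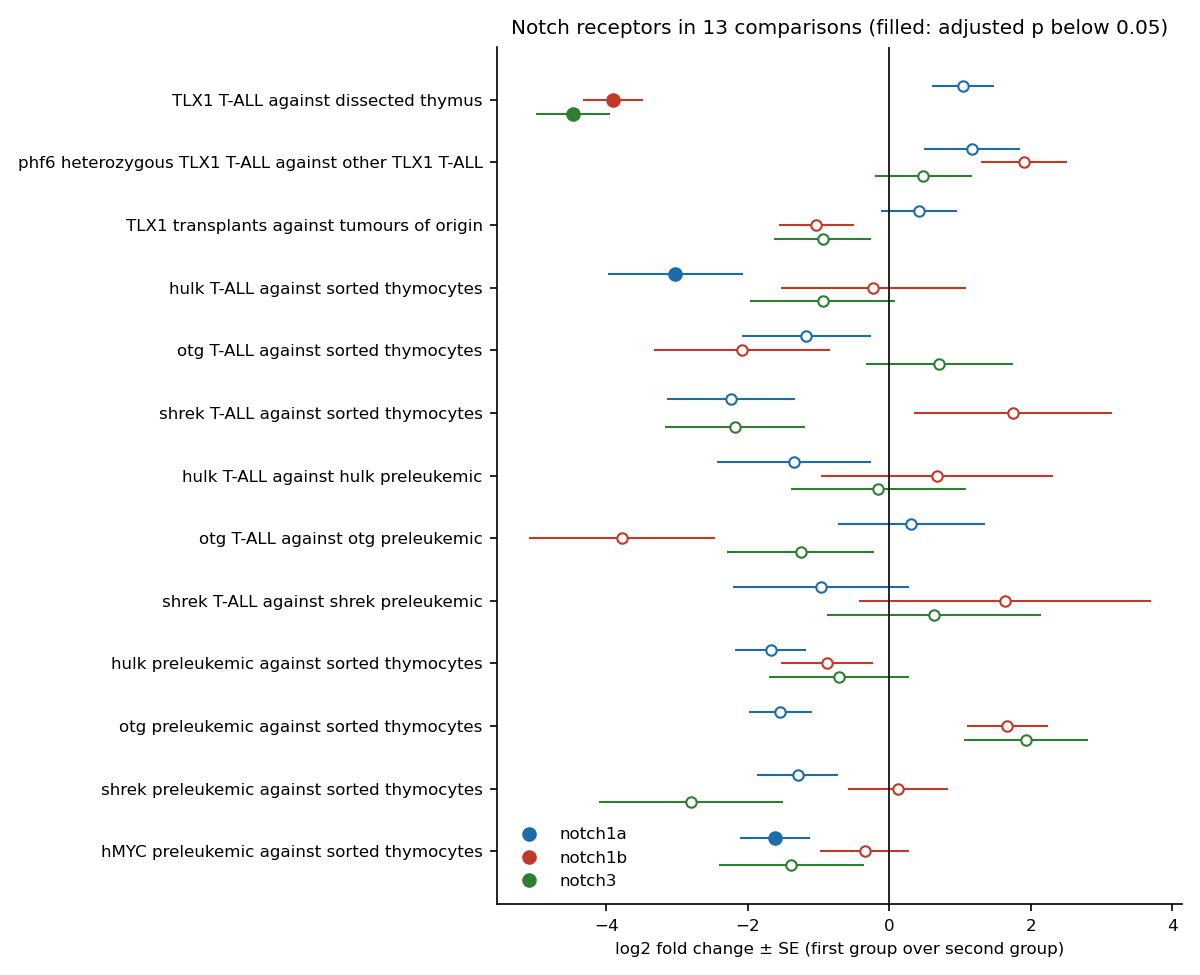
Log2 fold changes (edgeR, with SE derived from the F value of its test) of notch1a, notch1b and notch3 in 13 comparisons. Points are filled where the adjusted p is below 0.05. notch1b and notch3 in TLX1 T-ALL against dissected thymus lie at -3.90 and -4.46, and the comparisons of the hulk, otg and shrek lines have wider errors.

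Tumours with no read at all for a receptor were found in each of the 3 lines. Tumour 8 of otg had 0 reads for notch1a, notch1b and notch3, which allows up to 0.447 CPM for each, the level of 3 reads there. Tumour 5 of otg had none for notch1a and notch3 (up to 0.326 CPM), hulk tumour 7 none for notch1b and notch3 (up to 0.329 CPM) and shrek tumour 9 none for notch1b (up to 0.171 CPM). These limits cover counting error only. The TMM factors of these otg and hulk libraries were low, at 0.411 for otg tumour 8, 0.61 for otg tumour 5 and 0.585 for hulk tumour 7, where the Frazer libraries ran from 0.411 to 1.6. In otg tumour 8 other genes were near 0 too, such as the corepressor NCOR1, at 0.447 CPM against 24.4 CPM or more in the other otg T-ALLs. The part of library make-up in these zeros was not tested. Of the 29 sorted T-ALLs, 11 were below the healthy range for all 3 receptors (2 hulk, 4 otg and 5 shrek tumours), 15 for exactly 2, 3 for a single receptor and 0 for none. The counts of tumours below the healthy range were the same with library size as the only scaling. How often other genes lay below it in as many tumours was not computed.

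Before overt leukaemia, the sorted cells of the 4 preleukemic groups had less notch1a than the sorted thymocytes in most libraries. The thymocytes form a separate table here too, so an effect of the table cannot be told apart from that of the preleukemic groups. The preleukemic shrek libraries were also deeper, at 47598816 and 56471528 reads, against 13259934 to 15437586 in sorted thymocytes. The hMYC cells had 10.9, 8.24 and 5.08 CPM, the hulk cells 13.3, 6.00 and 6.12 CPM, the otg cells 14.1, 10.7, 4.54 and 7.35 CPM and the shrek cells 8.37 and 11.05 CPM, against 10.05 to 45.05 CPM in sorted thymocytes. These ranges overlap in every group. By edgeR's test notch1a fell in hMYC cells, by 1.61 on the log2 scale (SE 0.50, adjusted p = 0.0309), 1 of 3 receptors called where 19.9% of genes were.

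That call was lost in 7 of 16 alternatives. The adjusted p was 0.0519, 0.0888 and 0.140 without hMYC library 1, 2 and 3, and 0.0633 and 0.0750 without sorted thymocyte library 1 and 2. It was 0.0556 with the compared groups alone and 0.0605 with limma voom. The value was -1.82 (adjusted p = 0.0142) without the libraries rich in mitochondrial reads. In the same comparison, where 19.9% of genes were called, 4 of 12 T-cell markers were called higher. Fibroblast (3 of 6), neutrophil (2 of 3), skin (2 of 4) and mural markers (2 of 7) were called lower. So were macrophage (2 of 11), thymic epithelial (1 of 5) and neural markers (1 of 5), at 18.2%, 20% and 20%, near the share of all genes. The part of these markers in the notch1a result was not tested.

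None of notch1a, notch1b and notch3 was called in the hulk (3.77% of genes called), otg (5.33%) or shrek (38.0%) preleukemic cells. The log2 fold change of notch1a over sorted thymocytes was -1.68 for hulk (SE 0.50, edgeR adjusted p = 0.0705), -1.54 for otg (SE 0.44, adjusted p = 0.0524) and -1.29 for shrek (SE 0.57, adjusted p = 0.0806). Without the libraries rich in mitochondrial reads, of which sorted thymocyte library 3 is the one in these comparisons, all 3 passed, at -1.86 (adjusted p = 0.0227), -1.74 (adjusted p = 0.0213) and -1.49 (adjusted p = 0.0351). All 3 also passed without sorted thymocyte library 5 (adjusted p = 0.0426, 0.0164 and 0.0356) and with the DESeq2 test (adjusted p = 0.0175, 0.0112 and 0.0251). Libraries 5 and 3 had the lowest notch1a of their group, 10.05 and 11.2 CPM.

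In preleukemic otg cells notch1b and notch3 were both high. Their notch1b level was 121.5, 51.5, 121 and 72.3 CPM, above every sorted thymocyte library (7.83 to 45.8 CPM), with a log2 fold change of 1.67 (SE 0.57, edgeR adjusted p = 0.103). Their notch3 level was 8.07, 5.36, 8.25 and 7.02 CPM, again above every sorted thymocyte library (1.00 to 3.85 CPM), with a log2 fold change of 1.94 (SE 0.87, adjusted p = 0.228). Both passed in a fit of the compared groups alone, at 1.67 (adjusted p = 0.0476) and 1.91 (adjusted p = 0.0265), and notch1b passed with the DESeq2 test, at 1.70 (adjusted p = 0.0293). The share of all genes with every preleukemic otg library above every thymocyte library was not computed. Of the marker lists of other cell types, 1 mural, 1 B-cell and 1 erythroid marker were called lower in these cells and none was called higher. Thymic epithelial markers were not called, with a median log2 fold change of 1.81 (-0.06 over all genes) and sums of 32.6 to 65.1 CPM in preleukemic otg cells against 11.6 to 111 CPM in sorted thymocytes. Of these, foxn1 had 0.413 to 1.07 CPM in preleukemic otg cells against 0 to 0.442 CPM in thymocytes, and dll4 had 3.81 to 5.67 CPM against 0.455 to 3.98 CPM. The part of these cells in the receptor levels was not tested. PDGFRB, the defining receptor of mural cells, had 0.0561 to 0.280 CPM in preleukemic otg cells and 0 to 0.191 CPM in sorted thymocytes.

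The other preleukemic groups did not show these levels. Preleukemic shrek cells had 0 and 0.479 CPM of notch3, both below every sorted thymocyte library, with a log2 fold change of -2.80 (SE 1.3, edgeR adjusted p = 0.0959), and 28.4 and 27.8 CPM of notch1b (0.13, SE 0.71, adjusted p = 0.901). For notch3 there, the DESeq2 test (-2.97, adjusted p = 0.0223) and limma voom (-4.43, adjusted p = 0.0144) made a call, as did edgeR without library 2 (adjusted p = 0.026), which leaves a single library at 0 reads. Preleukemic hulk cells had 3.38, 0.0833 and 0 CPM of notch3 (-0.71, SE 0.99, adjusted p = 0.709) and 24.0, 16.1 and 7.62 CPM of notch1b (-0.88, SE 0.65, adjusted p = 0.445). Without hulk library 1, the only one of the 3 with more than 0.0833 CPM, notch3 was called at -5.11 (adjusted p = 0.0174). Preleukemic hMYC cells had 0.383, 1.02 and 0.581 CPM of notch3 (-1.39, SE 1.03, adjusted p = 0.344) and 47.3, 3.96 and 11.8 CPM of notch1b (-0.35, SE 0.63, adjusted p = 0.728).

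Between tumours and preleukemic cells of the same line, no receptor passed the test. In the otg line all 10 T-ALLs had less notch1b, at 0 to 22.2 CPM, than all 4 preleukemic libraries, at 51.5 to 121.5 CPM. The share of all genes separated like this was not computed. The log2 fold change of notch1b was -3.78 (SE 1.32, edgeR adjusted p = 0.0519), where 12.1% of genes were called. It passed with DESeq2's scaling (-3.90, adjusted p = 0.0475), with its test (-3.90, adjusted p = 0.0314), with library size as the only scaling (-4.35, adjusted p = 0.029), with limma voom (-5.88, adjusted p = 0.0075) and without otg tumour 10 (-4.22, adjusted p = 0.0328). For notch3, 9 of 10 otg T-ALLs lay below every preleukemic otg library and tumour 2 above them, with a log2 fold change of -1.25 (SE 1.04, adjusted p = 0.443), and -3.33 (adjusted p = 0.00254) with limma voom. For notch1a the value was 0.31 (SE 1.04, adjusted p = 0.878), and -1.78 (adjusted p = 0.125) without tumour 9.

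In the hulk line, where 0.206% of genes were called, the log2 fold changes of T-ALL over preleukemic cells were -1.34 for notch1a (SE 1.09, edgeR adjusted p = 0.571), 0.68 for notch1b (SE 1.64, adjusted p = 0.886) and -0.15 for notch3 (SE 1.24, adjusted p = 0.974). Without preleukemic library 1 the notch3 value was 4.19 (adjusted p = 0.29). In the shrek line, where 15.4% of genes were called, they were -0.96 for notch1a (SE 1.24, adjusted p = 0.624), 1.63 for notch1b (SE 2.07, adjusted p = 0.616) and 0.63 for notch3 (SE 1.52, adjusted p = 0.812). Without shrek tumour 7 the notch1b value was -1.32 (adjusted p = 0.546), and the notch3 value was -0.35 (adjusted p = 0.957) without preleukemic library 1 and 5.77 (adjusted p = 0.298) without library 2.

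Among the 3 tumour lines, edgeR's quasi-likelihood test on 2 degrees of freedom called notch1b (adjusted p = 0.0147) and notch3 (adjusted p = 0.0151) as different and not notch1a (adjusted p = 0.121), 2 of 3 receptors where 53.7% of genes were called. The shrek T-ALLs exceeded the otg T-ALLs in notch1b by 3.83 on the log2 scale and the hulk T-ALLs by 1.98. In notch3 the shrek T-ALLs were lower than the otg T-ALLs, at -2.89, and lower than the hulk T-ALLs, at -1.24. Each call rested on a single tumour. Without shrek tumour 7 the adjusted p of notch1b was 0.207, and without otg tumour 2 that of notch3 was 0.263. Both calls were also lost with limma voom (0.289 and 0.528) and with the compared groups alone (0.0587 and 0.0504). Without the libraries rich in mitochondrial reads both were past the threshold, at 0.0147 and 0.0278.

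In the sorted T-ALLs, 4 tumours stood far above the rest of their line for a receptor, as shown by a gap to the next tumour that exceeded Dixon's limit for the group. Shrek tumour 7 had 838 CPM of notch1b from 13728 reads, which is 25.3 times the next shrek tumour at 33.1 CPM. Otg tumour 9 had 84.75 CPM of notch1a, 6.59 times the next otg tumour. Otg tumour 2 had 19.5 CPM of notch3 from 357 reads, 3.68 times the next, and hulk tumour 3 had 3.87 CPM of notch3, 2.77 times the next.

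Gaps of this kind were common in these lines. A highest tumour past the same limit was found for 17.8% of genes in shrek, 25.1% in otg and 19.9% in hulk T-ALLs. A ratio as large as that of notch1b in shrek tumour 7 was reached by 0.548% of genes in that line. For notch1a in otg tumour 9 it was 2.44% of genes, for notch3 in otg tumour 2 it was 5.59%, and for notch3 in hulk tumour 3 it was 5.85%.

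The group means turn on these tumours. In shrek T-ALLs notch1b averaged 94.5 ± 262 CPM (SD, n = 10), and 11.9 ± 15.4 CPM without tumour 7 (SD, n = 9). In otg T-ALLs notch1a averaged 10.8 ± 26.3 CPM (SD, n = 10), and 2.55 ± 4.08 CPM without tumour 9 (SD, n = 9). In otg T-ALLs notch3 averaged 2.84 ± 6.06 CPM with tumour 2 in (SD, n = 10), and 0.987 ± 1.66 CPM without it (SD, n = 9).

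**Figure D4:**
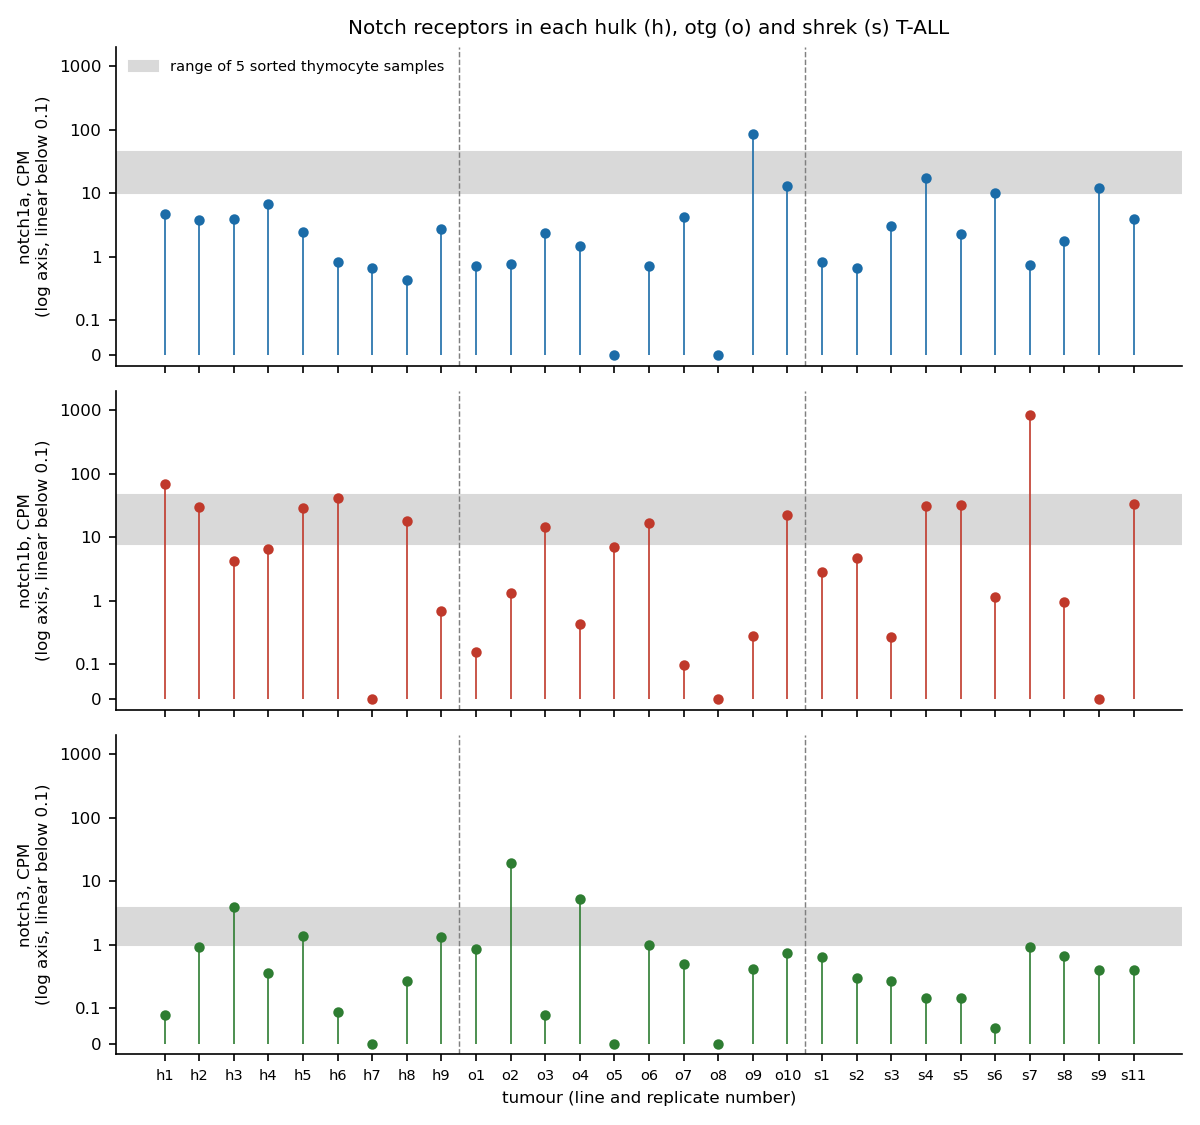
CPM (log axis, linear below 0.1) of the 3 receptors in each hulk (h), otg (o) and shrek (s) T-ALL, 1 point per tumour, with the range of the 5 sorted thymocyte libraries as a grey band. The high tumours are shrek 7 for notch1b (838 CPM), otg 9 for notch1a (84.75 CPM) and otg 2 for notch3 (19.5 CPM).

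Among notch1a, notch1b and notch3, the outlying tumours were each past the limit for a single receptor. Shrek tumour 7 had 0.732 CPM of notch1a and 0.916 CPM of notch3, otg tumour 9 had 0.273 CPM of notch1b and 0.409 CPM of notch3, and otg tumour 2 had 0.765 CPM of notch1a and 1.31 CPM of notch1b. Hulk tumour 3 had 3.93 CPM of notch1a and 4.23 CPM of notch1b, and at 117.2 CPM the highest notch2 of the hulk T-ALLs. Over a list of 61 other Notch pathway genes, shrek tumour 7 was the highest of its line for 7 genes (11.5%, against 14.4% of all genes). Among these were cdkn1a, a cell-cycle inhibitor, at 15.14 CPM against at most 7.16 CPM in the other shrek tumours, and GATA3, a T-cell transcription factor, at 1031 CPM against at most 862 CPM. Otg tumour 9 was the highest of its line for 16 of the 61 genes (26.2%, against 10.3% of all genes). These included the receptor notch2, at 240 CPM against at most 179 CPM, and MAML1, a Mastermind coactivator, at 64.7 CPM against at most 46.9 CPM. Shrek tumour 7 was the lowest of its line for 5 of the 61 genes (8.2%, against 15.4% of all genes). For otg tumour 9 this number was 3 (4.92%, against 7.95% of all genes).

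Otg tumour 2 was the highest of its line for 5 of the 61 genes (8.2%, against 7.21% of all genes). They included RBPJ (ENSDARG00000052091), the DNA-binding partner of the Notch intracellular domain, at 24.1 CPM against at most 12.1 CPM, and NRARP (ENSDARG00000091419), a feedback inhibitor induced by Notch in vertebrates, at 67.0 CPM against at most 44.0 CPM. The same tumour was the lowest for 3 of the 61 (4.92%, against 5.19% of all genes). Among those was HES1 (ENSDARG00000006514), at 0.273 CPM against 1.04 CPM or more. The other RBPJ gene (ENSDARG00000003398) had 17.4 CPM, against a median of 27.1 CPM in the other otg tumours. Otg tumour 8, the tumour with no reads for the 3 receptors, was at or below the lowest of the others for 30 of the 61 genes (49.2%, against 32.3% of all genes). Its notch2 level was 2.98 CPM, against 28.2 CPM or more in the other otg tumours, and its MAML1 level 0.596 CPM, against 5.00 CPM or more. These genes were singled out after their values were seen.

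Marker levels of the outlying tumours were partly unusual too. Shrek tumour 7 had summed T-cell markers of 7530 CPM, below the other shrek T-ALLs (8050 to 19900 CPM). Its mural cell markers, at 336 CPM, were just above the others (93.6 to 330 CPM) and within the 258 to 622 CPM of sorted thymocytes. Its endothelial markers, at 1.65 CPM, were below the others (2.53 to 36.5 CPM). Otg tumour 9 had endothelial markers of 12.6 CPM, above the other otg T-ALLs (0.298 to 9.09 CPM), and T-cell markers of 11300 CPM, within their range (3870 to 17300 CPM). Otg tumour 2 was within the range of the others for all lists, and hulk tumour 3 had thymic epithelial markers of 119 CPM, above the other hulk T-ALLs (6.98 to 54.7 CPM). The part of these cell types in the receptor levels was not tested.

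**Figure D5:**
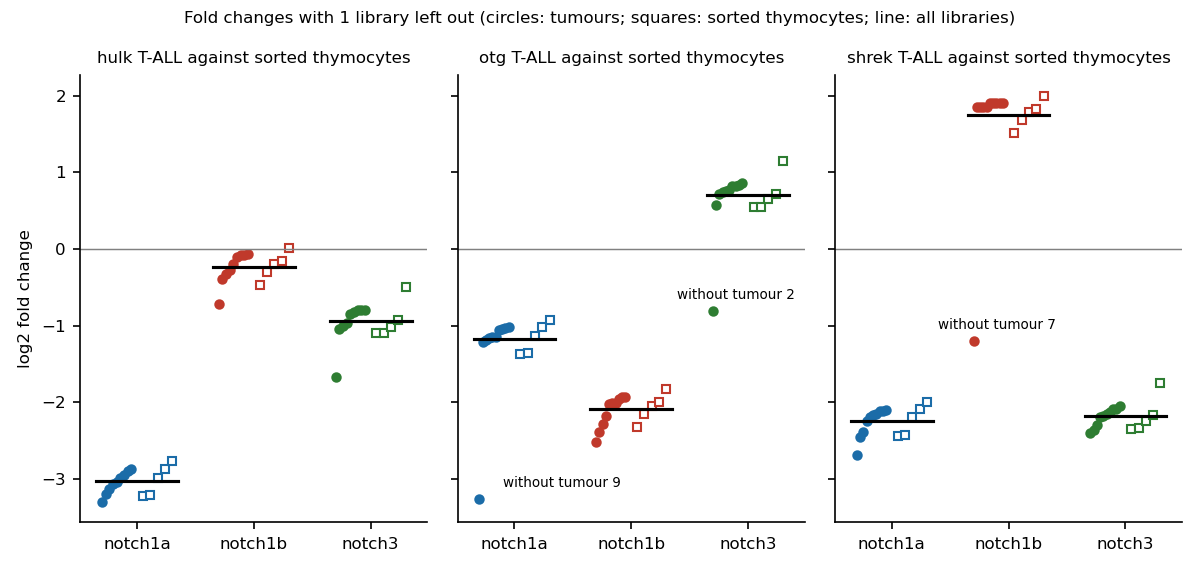
Log2 fold changes (edgeR) of the 3 receptors in T-ALL over sorted thymocytes with all libraries and with each tumour or thymocyte library left out in turn. Lines mark the value with all libraries, circles the leave-outs of tumours and squares those of thymocyte libraries. The labelled points are without shrek tumour 7 (notch1b, -1.20), without otg tumour 9 (notch1a, -3.26) and without otg tumour 2 (notch3, -0.81).

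Within a line, the levels of the receptors showed no relation that passed a test. Of 9 relations computed on log2(CPM + 1), the 3 receptor pairs in each of the 3 lines, the smallest adjusted p was 0.489. That relation, notch1a with notch3 in 10 shrek T-ALLs, had Pearson's r = -0.618 (permutation p = 0.0543) and Spearman's rho = -0.515 (permutation p = 0.131), and r was -0.702 without the 2 tumours farthest from the median of notch1a.

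Across all 29 sorted T-ALLs, the genes whose CPM followed each receptor most closely were listed by Spearman's rho among genes with a mean of at least 5 CPM. Genes without a symbol or with only a provisional name were left out. This left 8694 genes for notch1a and notch1b and 8695 for notch3. These are descriptions, since the tumours share 3 lines and each rho mixes differences between and within lines. For notch1a they were TBC1D1 (0.707), FMNL3 (0.693), cast (0.671), flna (0.667) and SMAD7 (0.655). For notch1b they were cecr2 (0.676), SERINC5 (0.644), RNPEP (0.641), SPAST (0.629) and KLHL22 (0.611). For notch3 they were LPAR6 (0.694), DAZAP2 (0.669), wasa (0.639), KLF11 (0.598) and NET1 (0.595). Within single lines the rho of these genes ran from 0.1 (SERINC5 with notch1b in hulk) to 0.917 (RNPEP with notch1b in hulk).

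The fourth receptor, notch2, was the one called lower in all 3 sorted T-ALL lines. It reached 1.75 to 117 CPM (median 69.95) in hulk, 2.98 to 240 CPM (median 72.6) in otg and 8.08 to 149 CPM (median 93.4) in shrek T-ALLs, against 118 to 365 CPM (median 252) in sorted thymocytes. By edgeR's test it fell by 1.83 on the log2 scale in hulk (SE 0.54, adjusted p = 0.0213), by 1.54 in otg (SE 0.52, adjusted p = 0.0244) and by 1.52 in shrek T-ALLs (SE 0.52, adjusted p = 0.0248). These 3 comparisons share the thymocyte libraries. All 3 calls were lost without thymocyte library 2 (adjusted p = 0.0569, 0.0608 and 0.0624) or library 4 (adjusted p = 0.0615, 0.0636 and 0.0649). The otg call was also lost with the compared groups alone (adjusted p = 0.0760) and the shrek call with limma voom (adjusted p = 0.0512). Without the libraries rich in mitochondrial reads all 3 were called, at -1.97 in hulk, -1.82 in otg and -1.78 in shrek T-ALL (adjusted p = 0.0416, 0.0194 and 0.0196). In TLX1 T-ALL notch2 did not pass (-0.31, SE 0.27, adjusted p = 0.352), and with library size as the only scaling it did (-1.55, adjusted p = 0.00156). Preleukemic shrek cells had 71.3 and 83.6 CPM of notch2, and it was called lower there too, where 38.0% of genes were called.

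Around the receptors, 81 other Notch pathway genes were tested in TLX1 T-ALL against thymus, of which 16 were called higher and 26 lower (51.9% called, against 56.0% of all genes, and median log2 fold change 0.10, against -0.19 over all genes). Among ligands, 3 of 10 were called higher and 5 lower. One that fell was jag2b, a Jagged ligand, at 0.0411 to 0.578 CPM in the TLX1 T-ALLs of both genotypes against 6.94 to 9.73 CPM in thymi (-5.11, SE 0.39, edgeR adjusted p = 1.24e-06). Of the genes for processing and glycosylation, 7 of 15 were called higher and 1 lower, and of the nuclear complex 3 of 10 higher and 0 lower. Of the target genes, a list that also holds notch3, 2 of 27 were called higher and 18 lower. The 3 named here are hairy-related repressors, chosen by their small adjusted p among those called lower. For her2 the log2 fold change was -7.13 (SE 0.68, adjusted p = 5.56e-06), for her15.1 it was -7.43 (SE 0.66, adjusted p = 1.42e-05) and for HES4 (ENSDARG00000056438) it was -2.35 (SE 0.23, adjusted p = 6.71e-06). HES4 had 1.11 to 2.76 CPM in the T-ALLs and 6.56 to 11.1 CPM in thymi. None of the 81 was called between the phf6 genotypes and none of 66 in the transplants.

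In the sorted T-ALLs, 76 other Notch pathway genes were tested. In hulk T-ALL 4 were called higher and 10 lower (median -0.49, against 0.09 over all genes), which is 18.4% called against 13.7% of all genes. In otg T-ALL 3 were called higher and 11 lower (median -0.37, against -0.04), which is 18.4% against 28.0% of all genes. In shrek T-ALL 4 were called higher and 14 lower (median 0.16, against -0.02), which is 23.7% against 30.2% of all genes. DTX1, a ubiquitin ligase that binds Notch, had 0.564 to 12.2 CPM in hulk T-ALLs against 4.74 to 43.7 CPM in sorted thymocytes and fell by 2.64 (SE 0.53, edgeR adjusted p = 0.00172). It also fell in otg T-ALL, by 2.17 (SE 0.51, adjusted p = 0.00188). RBPJ (ENSDARG00000052091) fell by 1.87 in hulk T-ALL, with 2.50 to 12.9 CPM against 10.5 to 26.5 CPM in thymocytes (SE 0.46, adjusted p = 0.00873).

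Proteases that process Notch and its ligands were among those called. FURIN (ENSDARG00000062909), which cuts the Notch precursor, fell by 1.53 in hulk T-ALL (SE 0.34, edgeR adjusted p = 0.00478). Without the libraries rich in mitochondrial reads the hulk values were -2.78 for DTX1 (adjusted p = 0.00295), -1.91 for RBPJ (adjusted p = 0.0258) and -1.57 for FURIN (adjusted p = 0.0149). The otg calls of DTX1, ADAM17, DLD and HES4 and the shrek calls of HES4, BHLHE40 and DLD also passed without them, with an adjusted p of 0.00344 or less. ADAM17 (ENSDARG00000093093), a protease of the ADAM family, had 1.87 to 14.8 CPM in otg T-ALLs against 18.8 to 33.6 CPM in thymocytes (SE 0.33, adjusted p = 0.000344). It was the only gene called of 15 for processing and glycosylation there (6.67%, against 28.0% of all genes). The other ADAM17 gene (ENSDARG00000043213), also among the 15, was thus not called. The Delta ligand DLD rose by 1.74 in otg T-ALL, with 70.04 to 261 CPM against 40.6 to 56.0 CPM in thymocytes (SE 0.29, adjusted p = 6e-05), and by 1.27 in shrek T-ALL, with 75.4 to 148 CPM (SE 0.28, adjusted p = 0.000697).

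Of the 22 target genes tested, 2 were called lower and 1 higher in hulk T-ALL (13.6%, against 13.7% of all genes). In otg T-ALL 6 were called lower (27.3%, against 28.0% of all genes). In shrek T-ALL 8 were called lower (36.4%, against 30.2% of all genes). The hulk and otg shares were thus near those of all genes. HES4 (ENSDARG00000056438) had 0.755 to 19.4 CPM in shrek T-ALLs and 1.64 to 89.8 CPM in otg T-ALLs, against 17.04 to 716 CPM in thymocytes. It fell by 5.50 in shrek (SE 0.77, edgeR adjusted p = 2.34e-06) and by 3.45 in otg T-ALL (SE 0.72, adjusted p = 0.000716). BHLHE40, a helix-loop-helix repressor, fell by 5.13 in shrek T-ALL, with 1.12 to 33.0 CPM against 40.2 to 1132 CPM in thymocytes (SE 0.90, adjusted p = 4.26e-05). HES1 (ENSDARG00000006514), a classical Notch target, fell by 4.09 in hulk (SE 0.87, adjusted p = 0.00328) and by 3.68 in shrek T-ALL (SE 0.82, adjusted p = 0.000758). Its level in thymocytes ran from 4.01 to 193 CPM, and both calls were lost without sorted thymocyte library 3, at -1.32 (adjusted p = 0.241) for hulk and -0.91 (adjusted p = 0.408) for shrek. That library is the one with the highest markers of skin, fibroblasts, thymic epithelium and neural cells, and their part in the HES1 result was not tested.

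In the preleukemic cells, Notch pathway genes called against sorted thymocytes numbered 0 of 73 in hulk cells, 4 lower and 0 higher in otg cells (5.48% called, against 5.33% of all genes), and 11 higher and 14 lower in shrek cells (34.2% called, against 38.0% of all genes). In hMYC cells 6 were called higher and 9 lower (20.5% called, against 19.9% of all genes), and 7 of the 19 target genes tested there were called lower. Between T-ALL and preleukemic cells of a line, 0 of these genes were called in hulk, 2 higher and 3 lower in otg (6.58%, against 12.1% of all genes), and 5 in each direction in shrek (13.2%, against 15.4%).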

How the data were processed

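RNA was measured as raw read counts per Ensembl gene, in 3 tables of counts deposited by the authors; counting after STAR alignment to GRCz10 is named per the submitters' processing notes, and the version, annotation and strand setting are not given in the sources used here. Reads of overlapping or antisense genes therefore may not be told apart. Libraries were stranded and polyadenylated, per the labels' protocols. Summary rows without a gene, 17.9% to 52.6% of the counts in the 46 Frazer libraries, were left out, and 9 columns that match no labelled sample were not analysed here. Symbols were matched for 27000 of 35117 genes.

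Comparisons were fitted with edgeR 4.0.16 (R 4.3.3) by its quasi-likelihood test, on primary TLX1 T-ALLs with dissected thymi (12 libraries), on all 46 Frazer libraries for sorted T-ALLs, and on the 17 preleukemic and healthy ones, with TMM factors and filterByExpr (minimum count 10, minimum total 15). Transplants were summed per tumour of origin, with the tumour as a block. The SE of a log2 fold change is its size divided by the square root of the F value of that test. It is an approximation and not an output of edgeR. P-values were adjusted by Benjamini-Hochberg over all genes and called below 0.05. Alternatives used limma 3.58.1, DESeq2 1.42.0, other scalings, no filter, leave-outs and a replicate block. Correlations used permutation tests with 100000 resamples, or exact ones with fewer than 10 tumours. Scripts were tested on simulated data. Over 201 pairs of libraries of the same group, the lowest median chi-square per gene was 2.31, against 0.455 by counting error alone, so none was a repeat deposit. The members, gene lists and tests were chosen with earlier results of these data known. Named genes are the 3 receptors, notch2, up to 4 other listed Notch genes with the smallest adjusted p per comparison of T-ALL with healthy cells, and the 5 genes most like each receptor; genes of single tumours were chosen after their values were seen.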

Additional observations from a re-analysis of the deposited data

Results flagged for a closer look

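The 3 receptors were looked at in the 9 groups of 4 or more libraries for a library far from the others, and 6 libraries stood apart. Chance flags about 1 in 20 groups where values are normally spread, while over all genes the highest library passed the same limit for 17.8% of genes in shrek, 25.1% in otg and 19.9% in hulk T-ALLs and for 3.45% to 14.3% in the other groups. The libraries were notch1b in shrek T-ALL 7 (838 CPM), notch1a in otg T-ALL 9 (84.75 CPM), notch3 in otg T-ALL 2 (19.5 CPM) and notch3 in hulk T-ALL 3 (3.87 CPM), all described above. The other pair are healthy libraries. Dissected thymus 11 had 40.5 CPM of notch3, against 21.0 to 28.2 CPM in the other thymi. Its mural cell markers summed to 272 CPM, against 227 to 251 CPM in the others. It was also the highest for macrophage markers (230 CPM, against 182 to 222 CPM) and the lowest for neural markers (43 CPM, against 52 to 81.7 CPM). The part of these cell types in its notch3 level was not tested. Sorted thymocyte library 3 had 3.85 CPM of notch3, against 1.00 to 1.82 CPM in the others, with a gap of 0.713 of the range where the limit is 0.710. With library size as the only scaling that gap was 0.481, under the limit. The mural cell markers of this library summed to 258 CPM, below the others (308 to 622 CPM). Its neutrophil (1.89 CPM) and erythroid markers (10.8 CPM) were also the lowest of the group. Its skin, fibroblast, thymic epithelial and neural markers were the highest, as given above. The part of these cell types in its notch3 level was not tested.

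In the preleukemic cells, notch3 lay on opposite sides of the sorted thymocytes in different lines. All otg libraries were above every sorted thymocyte library (median 7.54 CPM) and all shrek libraries were below every one (median 0.239 CPM). The share of all genes with this pattern was not computed. The difference between the lines was not tested.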

How the results depend on the processing

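The fall of notch1b and notch3 in TLX1 T-ALL passed in all 12 alternatives, at -5.18 to -3.74 for notch1b and -5.82 to -4.12 for notch3 on the log2 scale. Most other values had wide errors and moved with single libraries or with the test. Values below are log2 fold changes unless named as adjusted p. The alternative without libraries above 20% mitochondrial reads, and that without thymus 11, were chosen after seeing the data.

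With library size as the only scaling, notch1a in TLX1 T-ALL was -0.19, notch1b in otg T-ALL over preleukemic cells -4.35, and in preleukemic shrek cells notch1a was -1.79 and notch1b -0.46. The correlation of notch1a and notch1b in otg T-ALLs was 0.0534 under that scaling, against -0.026 with TMM factors. With DESeq2 size factors, notch1a in shrek T-ALL was -2.46, notch1b in otg T-ALL over preleukemic cells -3.90 and notch1b in preleukemic shrek cells -0.02. The median of all genes moved most by library size alone in TLX1 T-ALL, to -1.45 from -0.19.

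The replicate numbers were not taken to pair the samples. Correlations of same-numbered samples were -0.242 to 0.234, against -0.398 to 0.393 for other pairs, which cannot exclude pairing. For preleukemic hulk and hMYC cells with thymocytes, the highest same-numbered pair (0.234 and 0.0951) exceeded all other pairs (at most 0.173 and 0.0841). With the replicate block, notch1b was 0.15 in hulk T-ALL, -1.23 in shrek T-ALL, -4.40 in otg T-ALL over preleukemic cells and -1.70 in shrek T-ALL over preleukemic cells. With the same replicate block notch1a was -3.60 in otg T-ALL, -2.52 in shrek T-ALL, -1.99 in otg T-ALL over preleukemic cells, and -1.80, -1.72 and -1.76 in preleukemic hulk, otg and shrek cells. The adjusted p among lines under the replicate block was 0.134 for notch1b and 0.238 for notch3.

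With the compared groups alone, shrek T-ALL had -2.38 for notch1a and -2.30 for notch3, preleukemic otg cells 1.67 for notch1b and 1.91 for notch3, and hMYC cells -1.66 for notch1a. The adjusted p among lines was 0.0587 for notch1b and 0.0504 for notch3. Without libraries above 20% mitochondrial reads, notch1b in hulk T-ALL over preleukemic cells was -0.07, and notch1a in preleukemic hulk, otg and shrek cells -1.86, -1.74 and -1.49.

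With the DESeq2 test, notch1b was 2.08 between the phf6 genotypes, -3.90 in otg T-ALL over preleukemic cells, 1.70 in preleukemic otg and -0.01 in preleukemic shrek cells. That test gave -2.46 for notch1a and -2.40 for notch3 in shrek T-ALL, -1.61, -1.51 and -1.42 for notch1a in preleukemic hulk, otg and shrek cells, and -2.97 for notch3 in preleukemic shrek cells. With limma voom, otg T-ALL had -3.67, -4.05 and -1.21 and shrek T-ALL -2.84, -2.39 and -2.26 for notch1a, notch1b and notch3. Over preleukemic cells, limma voom gave -2.32, -5.88 and -3.33 for these receptors in otg T-ALL, -2.73 for notch1b in shrek T-ALL, and -0.69 for notch1b and 0.85 for notch3 in hulk T-ALL. It gave -4.43 for notch3 in preleukemic shrek cells, -1.43 for notch1a in hMYC cells, and adjusted p among lines of 0.289 for notch1b and 0.528 for notch3. The cause of these changes was not tested.

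Leaving out single libraries gave these ranges, with exceptions in the TLX1 model. In TLX1 T-ALL over thymus each tumour and thymus 11 were left out in turn, but not the other thymi. In transplants each tumour of origin was left out together with its transplants. For notch1a they were 0.71 to 1.25 in TLX1 T-ALL, -0.13 to 0.95 in transplants, -3.30 to -2.77 in hulk, -3.26 to -0.92 in otg and -2.68 to -1.99 in shrek T-ALL, and -1.78 to 0.60 in otg T-ALL over preleukemic cells. In preleukemic cells notch1a was -2.07 to -1.42 in hulk, -1.83 to -1.28 in otg, -1.49 to -1.08 in shrek and -1.90 to -1.35 in hMYC. For notch1b they were -0.71 to 0.02 in hulk and -1.20 to 2.00 in shrek T-ALL, -4.22 to -3.60 in otg and -1.32 to 1.88 in shrek T-ALL over preleukemic cells, -0.11 to 0.38 in preleukemic shrek and -1.77 to 0.15 in hMYC cells. For notch3 they were -0.23 to 1.80 between the phf6 genotypes, -0.81 to 1.15 in otg T-ALL, -0.88 to 4.19 in hulk and -0.35 to 5.77 in shrek T-ALL over preleukemic cells, and -5.11 to -0.17 in preleukemic hulk and -8.22 to -1.85 in preleukemic shrek cells. The adjusted p among lines was 0.00868 to 0.207 for notch1b and 0.00735 to 0.263 for notch3. Where a leave-out leaves a group with 1 library, that library is assumed to vary like the other groups.

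Counts of genes called moved by over 1.5 times in 12 of 14 comparisons. Their ranges were 0 to 703 (main 9) between phf6 genotypes, 0 to 617 (main 19) in transplants, 1384 to 3712 (main 2983) in hulk and 1769 to 6576 (main 6105) in otg T-ALL, and 4924 to 14106 (main 11730) among lines. Over preleukemic cells they were 1 to 786 (main 45) in hulk, 169 to 3888 (main 2636) in otg and 772 to 5615 (main 3356) in shrek T-ALL. In preleukemic cells they were 105 to 4441 (main 737) in hulk, 372 to 2048 (main 1041) in otg, 2987 to 8942 (main 7424) in shrek and 1432 to 5617 (main 3896) in hMYC. Depth limits the low values, since 3 reads correspond to up to 0.447 CPM in the tumours listed at 0.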
